A study of Homo sapiens with 6 samples.

Results

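Mitochondrial chaperones and proteases were followed in NCI-H660 cells through 10 genes, *HSPD1*, *HSPE1*, *HSPA9*, *TRAP1*, *LONP1*, *CLPP*, *CLPX*, *YME1L1*, *AFG3L2* and *HTRA2*. They were taken by symbol, and all 10 were found among the 17177 genes of the deposited FPKM table (sequenced fragments scaled to the length of the gene and the size of the library). NCI-H660 is an established line of human neuroendocrine prostate cancer (NEPC), labelled as wild type, and its cells were treated with PBS as the control or with pyrvinium pamoate (PP), an anthelmintic that the study tested as an inhibitor of the RNA-binding protein ELAVL3. RNA was sampled on day 3, with 3 libraries from each treatment, and the dose of PP given to these cells was not found in the sources used here.

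Most mitochondrial proteins are made in the cytosol and enter the matrix unfolded. There the HSP70 of the matrix pulls them in, and a chaperonin barrel with its lid folds them. AAA+ proteases of the matrix and the inner membrane remove proteins that fail to fold, and their genes are among those known to respond when protein folding in mitochondria is disturbed.

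Libraries held between 29064253 and 32481171 counts, recovered from the FPKM values. On the log2 scale the lowest correlation between libraries of the same treatment was 0.9962 and the highest between treatments was 0.9511, so no library stood with the other treatment. Of 9 neuroendocrine markers, 7 had a mean FPKM of at least 1, whereas *ELAVL3* and *MYCN* were below it. The summed FPKM of the 9 markers was 786 to 794 with PBS and 385 to 404 with PP. Of the 5 markers of the androgen receptor axis, 3 were in the table, and all were below 1 in the mean over the 6 libraries. The highest of them, *TMPRSS2*, had a mean FPKM of 1.02 with PBS and 0.459 with PP. The summed FPKM of 4 stromal and immune markers was 12.8 to 14 with PBS and 18.3 to 19.5 with PP, and nearly all of the difference was *VIM*, with a mean FPKM of 9.37 and 14.2, besides *COL1A1* with 3.3 and 4.16. *COL1A2* went the other way, from 0.769 to 0.417, and *PTPRC* was near 0 in all libraries. The part of these marker differences in the results below was not tested. Since the samples are bulk RNA, fewer cells of a type and less RNA per cell cannot be told apart.

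With PP, 7 of the 10 genes rose, 2 fell and 1 did not pass the test. Genes were called at an adjusted p under 0.05 in a limma fit across 11726 genes, in which 72.5% of all genes were called, 38.1% higher and 34.4% lower. The median log2 fold change (PP over PBS, with 1 added to each FPKM) was 0.44 over the 10 genes and 0.02 over all genes tested. Against that background a call says little by itself, and sizes are given first below. The changes were moderate, since none of the 10 passed the bulk transcriptome cutoff of the study's methods, which 5.18% of all genes passed. That cutoff is a P under 0.001, taken as unadjusted, and a log2 fold change of more than 1 in either direction. The RNA sequencing section of those methods names a P threshold of 0.05 instead. In 8 of the 10 genes the 3 PP libraries lay wholly on one side of the 3 PBS libraries, as they did in 75% of all genes tested.

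**Figure D1:**
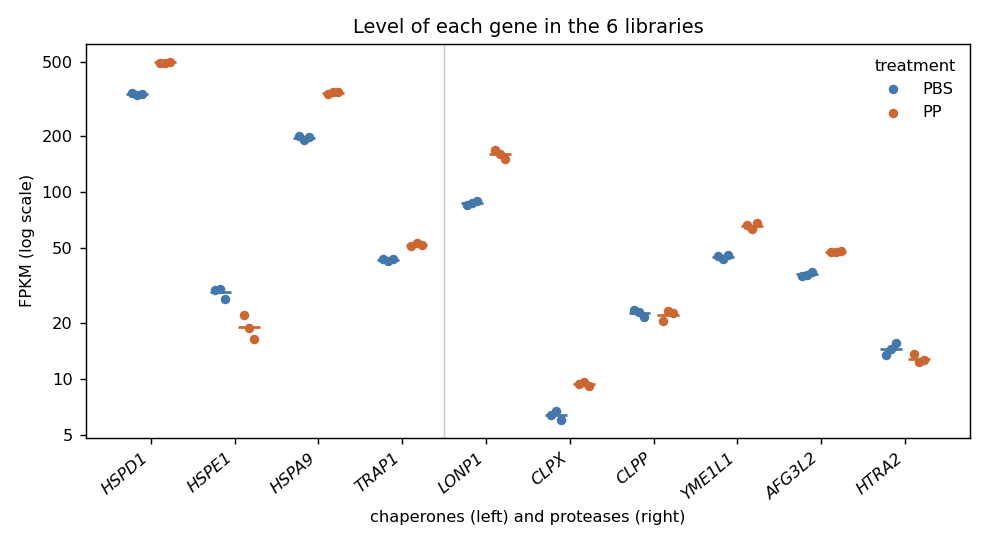
FPKM of the 10 genes on a log axis, with 1 point per library, PBS in blue and PP in orange, and a line at the mean of the 3 libraries. The points of the treatments overlap for *CLPP* and *HTRA2* and are apart for the other 8 genes, with *HSPE1* lower and the other 7 higher with PP.

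The promoters of the 3 genes with the highest log2 fold changes are shown as RefSeq gives them in GRCh38.p14, from 250 bases before a start of transcription to 50 after it. Capitals mark the letters CACGTG, an E-box, and TGCGCA, the core of the element of NRF1, a factor known for genes of mitochondrial proteins. The windows are those of *HSPD1* (chr2:197500225-197500524, minus strand), *HSPA9* (chr5:138575352-138575651, minus strand) and *LONP1* (chr19:5720097-5720396, minus strand).
HSPD1: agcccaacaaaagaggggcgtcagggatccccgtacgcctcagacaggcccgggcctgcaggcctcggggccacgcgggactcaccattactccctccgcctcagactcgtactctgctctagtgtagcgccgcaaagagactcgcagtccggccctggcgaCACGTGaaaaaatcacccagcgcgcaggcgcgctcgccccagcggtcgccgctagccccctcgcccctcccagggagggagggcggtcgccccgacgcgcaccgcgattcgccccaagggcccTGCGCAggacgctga
HSPA9: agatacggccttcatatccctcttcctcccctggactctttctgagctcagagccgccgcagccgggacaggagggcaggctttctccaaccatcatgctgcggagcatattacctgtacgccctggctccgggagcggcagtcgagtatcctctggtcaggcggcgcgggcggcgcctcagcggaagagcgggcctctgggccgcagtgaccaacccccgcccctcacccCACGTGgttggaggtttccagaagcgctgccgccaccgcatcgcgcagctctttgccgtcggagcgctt
LONP1: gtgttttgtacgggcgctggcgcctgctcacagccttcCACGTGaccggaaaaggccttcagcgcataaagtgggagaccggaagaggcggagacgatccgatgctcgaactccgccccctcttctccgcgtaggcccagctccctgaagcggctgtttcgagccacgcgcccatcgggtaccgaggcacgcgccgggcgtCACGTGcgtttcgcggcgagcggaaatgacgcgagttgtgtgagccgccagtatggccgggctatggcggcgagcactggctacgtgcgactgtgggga

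Promoter windows were found for 8 of the 10 genes, 11 windows in all, and none was found for *CLPP* or *YME1L1*. *HSPD1* and *LONP1* each have a second window that is not shown and does not hold the E-box letters. The E-box letters, which read the same on both strands, were present in 4 of the 11 windows, those of *HSPE1* and *HSPA9* and the *HSPD1* and *LONP1* windows shown, where they occurred at 2 places. They were present in 7.26% of the 35116 windows of all genes. TGCGCA, also the same on both strands, was in 3 of the 11 windows and in 8.24% of all windows. The 3 are the *HSPD1* window shown, that of *HSPE1* and that of a second start of *LONP1* (chr19:5720403-5720702), which holds the letters at 5 places. *HSPD1* and *HSPE1* are transcribed away from each other, and the *HSPD1* start of the window shown lies 105 bases from that of *HSPE1*. These windows share 204 of 300 bases, and the single E-box and the single TGCGCA that each window holds lie in that shared stretch. The window of a second *HSPD1* start (chr2:197499791-197500090) holds neither. Of the other letters searched on both strands, GAANNTTC, units of the heat shock element, was in 1 window, that of the second *HSPD1* start, and in 6.77% of all windows. TGATGCAA, of the element bound by C/EBP and ATF factors, was in none of the 11 and in 0.866% of all windows, and TCAAGGTCA, of the ERR element, in none and in 0.353%. These matches describe letters in these windows and say nothing about binding in these cells.

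*HSPA9* encodes mortalin, the HSP70 of the matrix, which both drives import and folds proteins. On hg19 the gene spans 137889445 to 137911364 of chromosome 5. Its FPKM was 199, 191 and 196 in PBS replicates 1 to 3 and 336, 342 and 342 in PP replicates 1 to 3. All PP libraries were therefore above all PBS libraries, with a ratio of the means of 1.74. The log2 fold change was 0.80 (standard error 0.03, 95% confidence interval 0.73 to 0.87, limma adjusted p = 6.04e-09), and 3.91% of all genes tested had a higher one.

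*HSPD1* encodes HSP60, the subunit of the chaperonin barrel, and had the highest level of the 10 genes with either treatment. On hg19 it spans 198351308 to 198381461 of chromosome 2. Its FPKM was 341, 331 and 337 with PBS and 491, 494 and 498 with PP, so the groups were far apart compared with their spread. The ratio of the means was 1.47 and the log2 fold change was 0.55 (standard error 0.03, limma adjusted p = 4.62e-08), with 9.25% of all genes higher. GENCODE names 18 pseudogenes of *HSPD1*, none of which is in the deposited table, and how reads shared with them were counted is not given in the sources used here.

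*HSPE1* encodes HSP10, the lid of that barrel, and went the other way. The FPKM of *HSPE1* was 30, 30.4 and 26.9 with PBS and 22, 18.8 and 16.3 with PP, so all PP libraries were below all PBS libraries, with the widest relative spread of the 10 genes among PP libraries. The ratio of the means was 0.655 and the log2 fold change was -0.59 (standard error 0.09, 95% confidence interval -0.79 to -0.39, limma adjusted p = 0.000166). Between 298 and 517 counts per library stood behind these values, the fewest of the 10 genes.

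The value of *HSPE1* is uncertain for reasons that lie in the annotation. The gene (chromosome 2 of hg19, 198364864 to 198368173) shares 192 exon bases, 10.5% of its own, on the same strand with the read-through gene *HSPE1-MOB4*, and 135 bases with *HSPD1* on the opposite strand. *HSPE1-MOB4* is not a row of the table used here, and *MOB4*, the gene at the far end of that read-through, had 0 to 8 counts per library. GENCODE names 26 pseudogenes of *HSPE1*, none of them in the table. The part of these overlaps and copies in the fall of *HSPE1* was not tested.

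Barrel and lid were compared within each library, since a ratio of 2 genes does not depend on how the library was scaled. The ratio of *HSPD1* to *HSPE1* FPKM was 11.4, 10.9 and 12.5 with PBS and 22.3, 26.2 and 30.5 with PP. The groups did not overlap, and the mean log2 ratio was 3.53 ± 0.10 with PBS and 4.71 ± 0.23 with PP (SD, n = 3), a difference of 1.18 (two-sided exact permutation test, p = 0.1, 0.111 after Benjamini-Hochberg adjustment over the 10 pairs compared). With 3 libraries against 3 this test cannot give a p below 0.1, which holds for each ratio below.

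*TRAP1* encodes the HSP90 of mitochondria and rose the least of the 7 genes. Its FPKM was 43.9, 42.9 and 43.6 with PBS and 51.5, 53.4 and 52.1 with PP, without overlap. The log2 fold change was 0.26 (standard error 0.03, limma adjusted p = 5.65e-05), and 26.3% of all genes had a higher one. *TRAP1* lies on chromosome 16 of hg19 (3701640 to 3767554) and shares 1477 exon bases, 28.5% of its own, with *DNASE1* on the opposite strand. *DNASE1* moved the other way, from an FPKM of 5.39 ± 0.532 with PBS to 3.53 ± 0.277 with PP (SD, n = 3; log2 fold change -0.50, limma adjusted p = 0.000178).

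**Figure D2:**
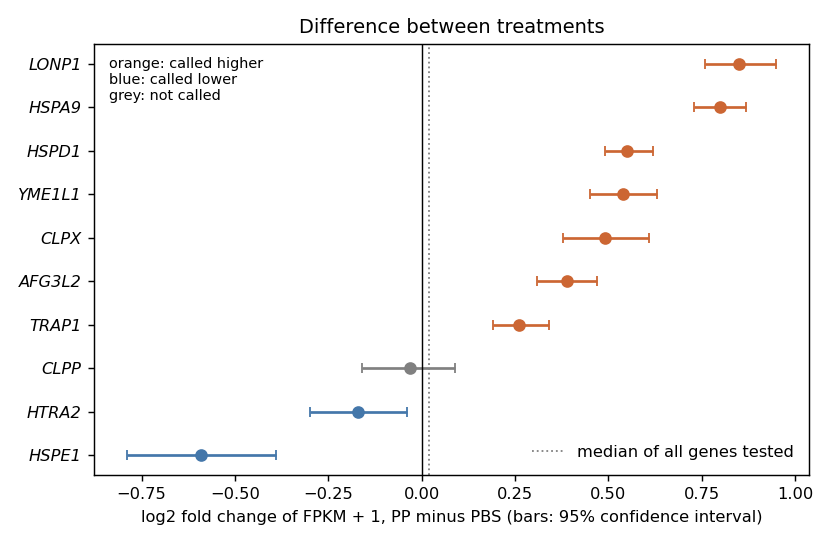
Log2 fold change of FPKM + 1 (PP minus PBS, horizontal axis) of the 10 genes with 95% confidence intervals from limma. Intervals of 7 genes lie above 0, from *TRAP1* at 0.26 to *LONP1* at 0.85, those of *HTRA2* and *HSPE1* lie below 0, and that of *CLPP* spans it; the dotted line is the median of all genes tested, 0.02.

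The proteases were read in the order of their place, first those dissolved in the matrix. *LONP1* encodes the Lon protease, which degrades oxidised and misfolded matrix proteins and is a single chain that carries both the ATPase and the peptidase. On hg19 it spans 5691845 to 5720583 of chromosome 19. Its FPKM was 85.3, 87.4 and 89.4 with PBS and 167, 159 and 151 with PP, all PP values above all PBS values. The ratio of the means, 1.82, and the log2 fold change of 0.85 (standard error 0.04, 95% confidence interval 0.76 to 0.95, limma adjusted p = 3.97e-08) were the highest of the 10 genes, and 3.36% of all genes tested had a higher log2 fold change.

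The other matrix protease is made of 2 different proteins. *CLPX* encodes its unfoldase ring, and *CLPP* the peptidase chamber that the ring feeds. *CLPX* (chromosome 15 of hg19, 65440557 to 65477680) had the lowest level of the 10 genes, with an FPKM of 6.37, 6.72 and 6.04 with PBS and 9.40, 9.60 and 9.13 with PP. It was higher in all PP libraries, by a log2 fold change of 0.49 (standard error 0.05, limma adjusted p = 1.37e-05) and a ratio of the means of 1.47, from 892 to 1415 counts per library.

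*CLPP* (chromosome 19 of hg19, 6361542 to 6370253) had an FPKM of 23.4, 22.9 and 21.4 with PBS and 20.4, 23.2 and 22.5 with PP. The groups overlapped, and the log2 fold change of -0.03 (standard error 0.06, limma adjusted p = 0.587) did not pass the test. Its 95% confidence interval ran from -0.16 to 0.09, which leaves out a rise of the size seen for *CLPX*. Within libraries the ratio of *CLPP* to *CLPX* was 3.68, 3.41 and 3.55 with PBS and 2.17, 2.42 and 2.47 with PP. The groups were apart, with a difference of the mean log2 ratio of -0.59 (two-sided exact permutation test, p = 0.1, adjusted 0.111). The ratio of *LONP1* to *CLPP* went from 3.64, 3.81 and 4.17 with PBS to 8.18, 6.85 and 6.68 with PP, a difference of 0.90 on the log2 scale (two-sided exact permutation test, p = 0.1, adjusted 0.111).

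The inner membrane carries AAA proteases on both of its faces. *YME1L1* encodes the one that faces the intermembrane space, which trims import components and processes the fusion protein OPA1. Its FPKM was 45.6, 43.8 and 45.9 with PBS and 66.6, 63.1 and 68.2 with PP (chromosome 10 of hg19, 27399040 to 27444195). *YME1L1* was thus higher in all PP libraries, by a log2 fold change of 0.54 (standard error 0.04, limma adjusted p = 8.7e-07).

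*OMA1*, a stress-activated peptidase of the same membrane that also cuts OPA1, moved with it. The FPKM of *OMA1* was 10.2, 8.98 and 10.9 with PBS and 14.2, 14 and 14.8 with PP (log2 fold change 0.48, standard error 0.06, limma adjusted p = 7.91e-05). The ratio of *YME1L1* to *OMA1* was 4.2 to 4.88 with PBS and 4.51 to 4.70 with PP. These ranges overlapped and the difference of the mean log2 ratio was 0.03 (two-sided exact permutation test, p = 0.7, adjusted 0.7), and without PBS replicate 3 it was -0.02.

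*AFG3L2* encodes a subunit of the protease that faces the matrix. It forms rings of its own or mixed rings with paraplegin, the product of *SPG7*. *AFG3L2* (chromosome 18 of hg19, 12328943 to 12377226) had an FPKM of 35.7, 35.9 and 37.5 with PBS and 47.6, 47.9 and 48.1 with PP, a clear gap with a log2 fold change of 0.39 (standard error 0.04, limma adjusted p = 4.35e-06). It shares 837 exon bases, 11.7% of its own, with *TUBB6* on the opposite strand, whose FPKM of 5.67 ± 0.142 with PBS and 7.43 ± 0.446 with PP (SD, n = 3) was much lower. *SPG7* fell, from an FPKM of 9.28, 9.83 and 10.1 to 8.89, 8.08 and 7.91 (log2 fold change -0.21, standard error 0.06, limma adjusted p = 0.00725). The ratio of *AFG3L2* to *SPG7* went from 3.85, 3.65 and 3.73 to 5.35, 5.93 and 6.08, a difference of 0.63 on the log2 scale (two-sided exact permutation test, p = 0.1, adjusted 0.111).

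*HTRA2* encodes a serine protease of the intermembrane space, which can bind inhibitors of apoptosis once released into the cytosol. On hg19 it spans 74756723 to 74760477 of chromosome 2, and its FPKM was 13.4, 14.5 and 15.6 with PBS and 13.5, 12.3 and 12.6 with PP. The groups overlapped, since PP replicate 1 was level with PBS replicate 1. The log2 fold change of -0.17 (standard error 0.06, 95% confidence interval -0.30 to -0.04, limma adjusted p = 0.0252) passed the threshold, but only narrowly. Over 16 alternative fits the adjusted p ran from 0.0071 to 0.107, and it passed in 11. It missed without PBS replicate 2 (0.0613) or 3 (0.107), without PP replicate 2 (0.0906) or 3 (0.0621) and without the filter on low values (0.0558). *HTRA2* shares 936 exon bases, 27.5% of its own, with *LOXL3* on the opposite strand, which had an FPKM of 2.73 ± 0.135 with PBS and 2.94 ± 0.424 with PP (SD, n = 3) and was not called.

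**Figure D3:**
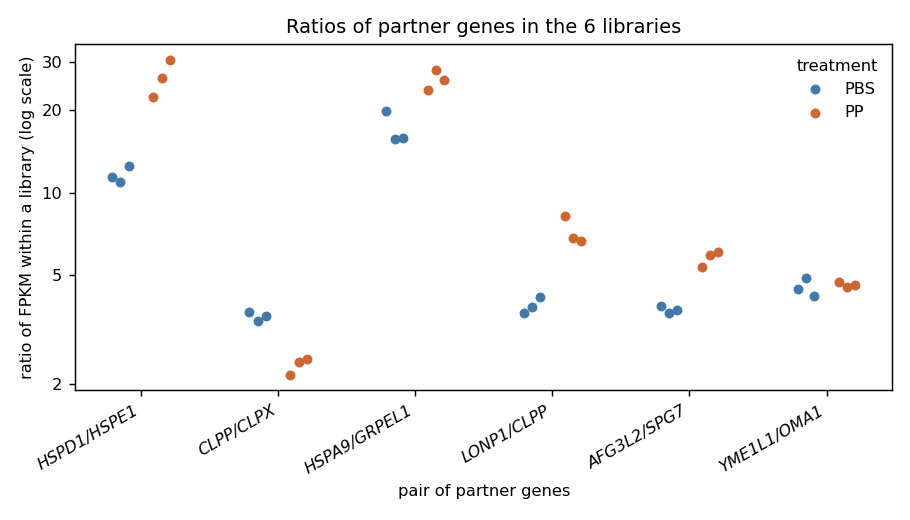
Ratio of the FPKM of 6 pairs of partner genes within each library on a log axis, PBS in blue and PP in orange. The treatments are apart in 5 pairs, with *HSPD1*/*HSPE1* going from 10.9 to 12.5 with PBS up to 22.3 to 30.5 with PP and *CLPP*/*CLPX* going down, and they overlap for *YME1L1*/*OMA1*.

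Levels per length kept nearly the same order under both treatments. With PBS the order was *HSPD1* (mean FPKM 336), *HSPA9* (195), *LONP1* (87.4), *YME1L1* (45.1), *TRAP1* (43.5), *AFG3L2* (36.3), *HSPE1* (29.1), *CLPP* (22.6), *HTRA2* (14.5) and *CLPX* (6.37), and only *YME1L1* and *TRAP1* had overlapping ranges. With PP the only exchange was that of *HSPE1* (19.0) and *CLPP* (22), whose ranges overlapped there.

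The chaperones of mitochondria were set beside their relatives in other compartments. In the HSP70 family, *HSPA5* of the endoplasmic reticulum (ER) had an FPKM of 114 ± 2.65 with PBS and 366 ± 2.38 with PP (SD, n = 3; log2 fold change 1.68), whereas *HSPA8* of the cytosol went from 852 ± 9.10 to 609 ± 13.8 (log2 fold change -0.48, limma adjusted p = 1.76e-07). *HSPA9*, at 0.80, lay between them. The ratio of *HSPA9* to *HSPA8* was 0.22 to 0.23 in PBS libraries and 0.55 to 0.56 in PP libraries, a log2 difference of 1.29. That of *HSPA9* to *HSPA5* was 1.70 to 1.73 with PBS and 0.92 to 0.94 with PP, a log2 difference of -0.89, so the ER gene overtook the mitochondrial gene (exact permutation test, p = 0.1 for each, adjusted 0.111).

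The HSP90 family showed the same split between compartments. *HSP90B1* of the ER had a log2 fold change of 0.37 (limma adjusted p = 3.92e-06), while *HSP90AA1* and *HSP90AB1* of the cytosol both had -0.44 (limma adjusted p = 1.2e-06 and 3.73e-07). *TRAP1*, at 0.26, moved with the ER gene, and the ratio of *TRAP1* to *HSP90B1* changed by -0.10 on the log2 scale. That of *TRAP1* to *HSP90AB1* changed by 0.70 (exact permutation test, p = 0.1 for each, adjusted 0.111). Neither pair overlapped between the groups. In the cytosolic chaperonin TRiC, the counterpart of HSP60, 3 of 8 subunits rose, *CCT4* at 0.18, *CCT8* at 0.15 and *CCT2* at 0.08. *CCT3* fell at -0.39 and 4 were not called, where 38.1% of all genes tested were called higher and 34.4% lower. The call of *CCT2* held in 5 of 16 alternatives. The median of TRiC was 0.03, and -0.01 with upper-quartile scaling, where 2 subunits were called lower.

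**Figure D4:**
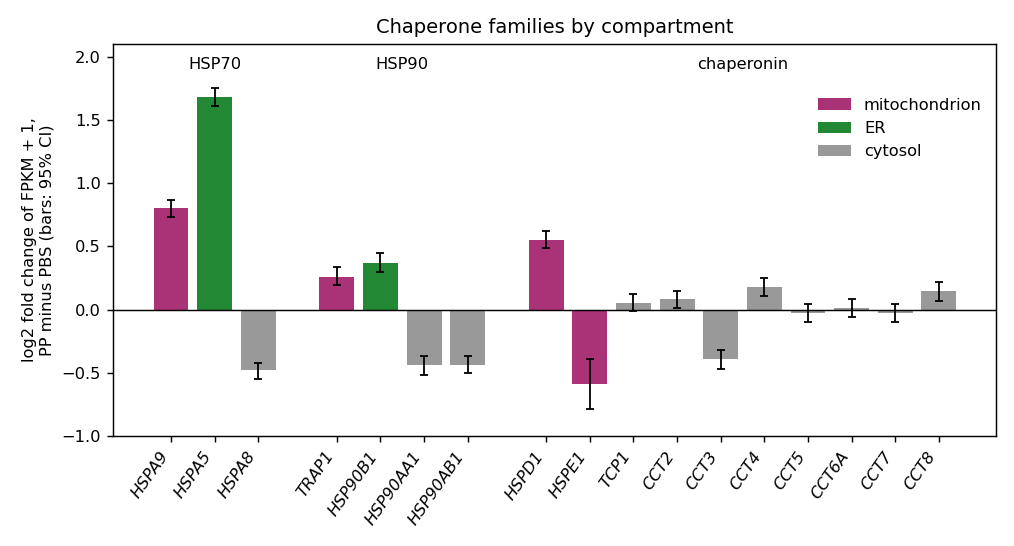
Log2 fold change of FPKM + 1 (PP minus PBS, vertical axis) of genes of 3 chaperone families, with bars coloured by compartment and 95% confidence intervals from limma. In HSP70 and HSP90 the mitochondrial and ER genes lie above 0 and the 3 cytosolic genes below it. Among chaperonins *HSPD1* is at 0.55, *HSPE1* is at -0.59 and the 8 TRiC subunits lie between -0.39 and 0.18.

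The partners of these genes did not all move with them. In a list of cochaperones and scaffolds, 12 genes were tested, of which 4 rose, 3 fell and 5 were not called. Over all genes tested, 38.1% were called higher and 34.4% lower. The median log2 fold change was 0.09 in the list and 0.02 over all genes. *DNAJA3*, a J protein that hands clients to HSPA9, went from an FPKM of 39.8 ± 1.22 to 76.5 ± 3.59 (SD, n = 3; log2 fold change 0.92, limma adjusted p = 2.83e-08), the highest of the list. *HSCB*, the J protein for iron-sulfur cluster transfer, had a log2 fold change of 0.68, *GRPEL2*, a nucleotide exchange factor for HSPA9, of 0.69, and *BCS1L*, an AAA protein of complex III assembly, of 0.17.

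The other exchange factor, *GRPEL1*, had an FPKM of 9.99, 12.1 and 12.4 with PBS and 14.2, 12.2 and 13.3 with PP, and its log2 fold change of 0.19 did not pass the test (limma adjusted p = 0.0537, and under 0.05 in 5 of 16 alternatives). The ratio of *HSPA9* to *GRPEL1* was 15.7 to 19.9 with PBS and 23.7 to 28.0 with PP, without overlap (log2 difference 0.60, exact permutation test, p = 0.1, adjusted 0.111). Both prohibitins, which form rings around the matrix-facing AAA protease, fell, with a log2 fold change of -0.42 for *PHB* (FPKM 70.0 ± 2.09 with PBS and 52.2 ± 1.52 with PP, SD, n = 3) and -0.21 for *PHB2*. *PPIF*, cyclophilin D, fell slightly at -0.11 (limma adjusted p = 0.0356, and under 0.05 in 11 of 16 alternatives).

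In the import motor, where HSPA9 works at the inner membrane, 6 of 8 listed genes were tested. Of these, 3 rose, 1 fell and 2 were not called, with a median log2 fold change of 0.10. The shares over all genes tested were 38.1% called higher and 34.4% lower, with a median of 0.02. *TIMM44*, the tether of HSPA9 at the import channel, rose from an FPKM of 29.7, 31.6 and 33.3 to 49.8, 49.9 and 48.1 (log2 fold change 0.63, limma adjusted p = 7.27e-07). *DNAJC19*, the J protein of the motor, rose by 0.35 and the channel subunit *TIMM23* by 0.20, while *TIMM17B* fell by 0.22. *TIMM17A* and *TIMM50* were not called. *PAM16* and *DNAJC15* were below a mean FPKM of 1 and were not tested.

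Of 13 tested genes for other mitochondrial proteases and peptidases, 7 rose, 2 fell and 4 were not called, with a median of 0.24. Over all genes tested, 38.1% were called higher and 34.4% lower. Besides *OMA1*, the genes of this list that rose were *NLN* (0.67), *METAP1D* (0.47), *PARL* (0.43), *IMMP1L* (0.34), *XPNPEP3* (0.25) and *ATP23* (0.24). *PARL* encodes the rhomboid protease of the inner membrane, and its FPKM was 18.6, 17.3 and 17.4 with PBS and 25.1, 22.4 and 25.2 with PP, without overlap. The genes that fell were *SPG7* and *PMPCA*, a subunit of the peptidase that removes import signals, at -0.24 (limma adjusted p = 0.00132). The other subunit, *PMPCB*, at 0.08, was not called.

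A list of 14 genes for other mitochondrial proteins (pores and import receptors of the outer membrane, matrix enzymes and respiratory subunits) was read beside them. In it 5 genes rose, 5 fell and 4 were not called, and the median was 0.01, or -0.01 with median-ratio size factors and -0.04 with upper-quartile scaling. Over all genes tested, 38.1% were called higher and 34.4% lower. The number that rose in this list was 2 with upper-quartile scaling and 3 without PBS replicate 2. Its genes that rose did so by at most 0.19 (*NDUFS1*). The lowest was *SDHA*, a subunit of complex II, with an FPKM of 65.0 ± 1.29 with PBS and 35.4 ± 1.9 with PP (SD, n = 3; log2 fold change -0.86). *VDAC1*, the main pore of the outer membrane, fell by 0.36.

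All 4 transcription factors listed for the response to mitochondrial or heat stress were called higher with PP, as were 38.1% of all genes tested. *DDIT3*, which encodes CHOP, went from an FPKM of 109 ± 0.343 to 415 ± 19.9 (SD, n = 3; log2 fold change 1.92, limma adjusted p = 1.07e-10). The log2 fold change was 0.65 for *ATF4*, 0.42 for *ATF5* and 0.50 for *HSF1*. Which stress, of mitochondria, the ER or another kind, lay behind these values was not tested.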

How the data were processed

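The deposited table holds FPKM values of 17177 gene symbols in 6 libraries, computed by the authors. The study's methods name mapping to hg19 with Bowtie and quantification with RSEM, Cufflinks and HTSeq, whereas the submitters' processing notes name fastp, HISAT2, HTSeq and GRCh38. Which of these gave the deposited FPKM is not given in the sources used here, nor is the use of strand in counting. The study's methods name a stranded library kit for RIP-seq and no stranded kit for RNA sequencing. The methods and a figure legend differ on the number of samples per group, and all 6 labelled libraries were used. The labels do not say whether replicates were separate cultures, so p-values measure the spread between these libraries, which may be technical.

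Within a gene all values were whole multiples of a step, and whole counts were recovered for all genes within 0.01 of a count, giving 29064253 to 32481171 per library. The totals rest on the smallest counts that match, so they can run low. A mean FPKM of 1 or more over the 6 libraries was required, which kept 11726 genes, and log2(FPKM + 1) was fitted with limma 3.58.1 in R 4.3.3 (eBayes with an intensity trend), with Benjamini-Hochberg adjustment over all of them. Fold changes on this scale understate those of low genes. Ratios of the means are of linear FPKM, and ratios of partner genes carry no pseudocount and were compared by exact permutation tests (scipy 1.17.1).

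The genes described were all members, the partners in the pairs, and called or extreme genes of the lists. Neighbours on the opposite strand, *MOB4*, *TIMM17A*, *TIMM50* and *PMPCB* were added after their values were seen. The members and lists were chosen with earlier results of these data known. Positions come from GENCODE lifted to hg19 and promoters from RefSeq. The table itself holds no coordinates. Alternatives varied the pseudocount, filter, scaling, trend, replicate block and libraries, and 1 used limma-voom on recovered counts. Equal replicate numbers did not pair the libraries.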

Additional observations from a re-analysis of the deposited data

How the results depend on the processing

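Across the 16 alternative fits, 7 of the 10 genes were called higher each time, and *HSPE1* was called lower each time. The number called lower was 1 without the filter on low values and 1 to 2 with a library left out, against 2, since *HTRA2* lost its call. The median of the 10 genes, 0.44, was 0.47 with a pseudocount of 0.1, 0.46 with 0.5, 0.43 with median-ratio size factors, 0.40 with upper-quartile scaling and 0.47 with limma-voom. Of 160 alternatives for single genes, 154 kept direction and call. *CLPP* ranged from -0.07 to 0.02 with a library left out. The log2 difference of *YME1L1* to *OMA1* changed sign, at -0.02, without PBS replicate 3, with a range of -0.02 to 0.09 over the libraries left out, and in the other 9 pairs the sign held. Over all genes the number past the study's bulk transcriptome cutoff was 607 with the pseudocount of 1, 757 with 0.5 and 906 with 0.1. It was 956 with limma-voom and 449 with a mean FPKM of at least 5, where fewer genes were tested. The count was thus higher with each smaller pseudocount, and the cause of the limma-voom value was not tested.

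Equal replicate numbers did not pair the libraries (correlation of deviations -0.21, -0.014 and -0.13). With the replicate block 4260 genes were higher and 3878 lower over all genes, and no call among the 10 genes changed.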

Other observations

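Other genes that overlap the 10 on the opposite strand were read beside them, since reads of both cannot be told apart where counting ignores strand. *YME1L1* shares 443 exon bases, 6.04% of its own, with *MASTL*, a kinase of mitotic entry. *MASTL* had an FPKM of 16.4, 15.5 and 16.1 with PBS and 21.1, 22.4 and 21.6 with PP (log2 fold change 0.42, limma adjusted p = 9.09e-06), so both genes of that overlap were higher. *HTRA2* also shares 165 exon bases with *AUP1*, a protein of lipid droplets and ER quality control, whose log2 fold change was 0.11. *LONP1* shares 42 bases with *RPL36*, a ribosomal protein gene, at 0.19. The part of these overlaps in the values of the 10 genes was not tested.

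*SPG7*, *PHB* and *PHB2*, which fell, and *AFG3L2*, which rose, encode proteins of a shared assembly in the inner membrane. In each of these 4 genes the libraries of the treatments did not overlap, as in 75% of all genes tested.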
